A study of Mus musculus with 12 samples.

Results

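Dexamethasone, a synthetic glucocorticoid, was given to cultured mouse oligodendrocyte precursor cells (OPCs), and the treated cultures (Dexa) were compared with untreated cultures (Ctr) of the same replicate number by total RNA-seq. Both groups were included by their labelled condition, which took 8 of the 12 samples of the series. The cells came from P4 to P6 pups, were obtained with the Sox10-GFP reporter or with CD140a beads, grew with PDGFaa and bFGF in both groups, and in Dexa received 1 µM for 48 h. The reporter is switched on by Cre under Sox10, which is active throughout the oligodendrocyte lineage, several brains were pooled per experiment, and the 4 replicates of a group came from different litters. Which of the isolation routes served which library is not given per sample, and a tag for EAE, an adult disease model, stands on these pup cultures without being described in the protocols.

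Glucocorticoids act through the glucocorticoid receptor, a nuclear receptor that rests in the cytoplasm with the HSP90 chaperones, enters the nucleus once it binds its ligand and activates genes next to glucocorticoid response elements. Among its well-known targets are the co-chaperone gene Fkbp5, the clock gene Per1 and the kinase gene Sgk1. OPCs are the dividing precursors of myelinating oligodendrocytes and are recognised by the PDGF receptor α and the proteoglycan NG2.

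The 6 libraries of the 3 pairs with full tables (replicates 1, 2 and 4) held between 19.2 M and 52.1 M estimated reads in genes. In each of these 3 pairs the Dexa library was the shallower, with 0.823, 0.756 and 0.621 times the reads of its Ctr library. The table of Ctr replicate 3 was also full, with 46.9 M. The table of Dexa replicate 3 stops part-way and was used only for the 19130 of 55536 genes whose transcripts it all lists, on chromosomes 1, 10 to 15 and part of 16. That pair took no part in the main fit and served as a separate measurement. OPC markers were abundant throughout: Pdgfra lay between 155.5 and 420.3 TPM (a length-corrected level) over the full libraries, Olig1 between 280.9 and 371.3 and Cspg4, which encodes NG2, between 39.7 and 109.8. Mog, a gene of mature oligodendrocytes, reached at most 0.151 TPM. The microglial gene Cx3cr1 was at 0 in all 3 full Dexa libraries and reached 0.00416 in Ctr, and the endothelial gene Cldn5 reached at most 0.0255.

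Replicate number outweighed treatment in the profile of all genes. The replicates came from different litters, but the isolation route is not given per sample, so litter and preparation cannot be told apart. The first principal component held 66.7% of the variance and separated replicate 1, replicate 2 and replicates 3 and 4, each holding both treatments, whereas the third, with 10.8%, placed the Dexa libraries at 11.9 to 18 and the Ctr libraries at -18.1 to -3.6. Every gene was therefore tested within pairs, with the replicate number as a block (edgeR's quasi-likelihood test, Benjamini-Hochberg adjustment over all genes tested). A gene was called at an adjusted p under 0.05. Levels below are CPM, gene counts scaled to library size, which are not corrected for gene length, and changes are log2 values of Dexa over Ctr with their SE from 3 pairs unless stated.

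Dexa raised a set of genes by large factors and lowered others by small ones. Of 17400 genes tested, 809 were called higher (4.65%) and 664 lower (3.82%). Among these, 128 were at least 2-fold higher (0.736% of the genes tested) but only 9 at least 2-fold lower (0.0517%), and the median size of the change was 0.40 for the higher and 0.27 for the lower genes. The plot of all genes by abundance shows this asymmetry. The number of calls depended strongly on the fit: 3 genes were called without the replicate block (Fam107a, Gpd1 and Per1), 275 when the spread was estimated from all 11 full libraries of the series, other treatments included (82.9% of them higher, against 54.9% with 6), 965 without replicate 2 and 2709 with no filter on low counts (37.8% higher). At 2-fold or more, 94 of the 128 higher genes and 4 of the 9 lower ones were also called with 11 libraries.

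**Figure D1:**
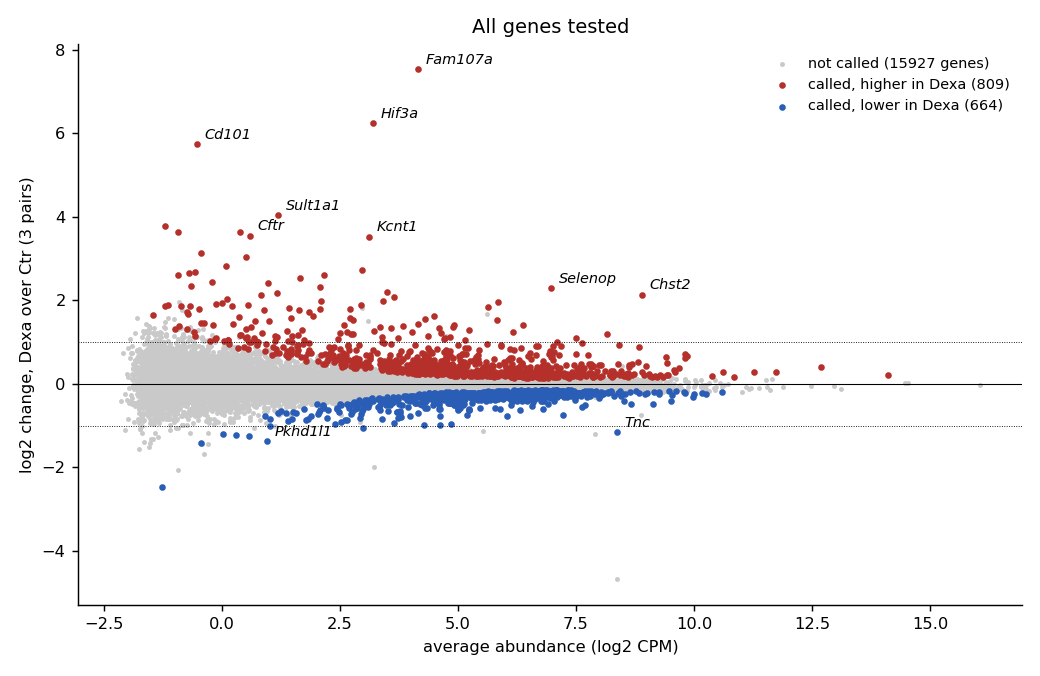
Change in Dexa over Ctr (log2, y axis) against average abundance (log2 CPM, x axis) for the 17400 genes tested, with the 809 genes called higher in red, the 664 called lower in blue and the rest in grey. Dotted lines mark 2-fold, and the red points beyond the upper line outnumber the blue points beyond the lower one by 128 to 9.

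The pair that the fit did not use gave the same side for most of the called genes with a higher level, and for fewer of those with a lower level. Of 272 genes called higher with replicates 1, 2 and 4 and listed whole in Dexa replicate 3, 251 (92.3%) were also higher in pair 3, against 47.8% of all 6109 genes tested and listed. At 2-fold or more this held for 41 of 43. Both exceptions, Gm37925 and Gm44502, are predicted genes. Of 256 genes called lower, 165 (64.5%) were lower in pair 3, against 52% of all listed genes, and for those that fell by 0.25 to 0.5 the share was 55.7%. One gene family made up part of the difference, as seen after the values were known. Histone genes, which are mostly transcribed while DNA is copied, supplied 37 of the 256, with a median of -0.32 in the fit and 0.75 in pair 3, and 35 of the 37 were higher in pair 3. The other 219 genes were lower in pair 3 in 163 cases (74.4%), and in the class of 0.25 to 0.5 in 57 of 76 (75%). Of 65 histone genes tested, 41 were called lower with 3 pairs, against 3.82% of all genes tested. By contrast, edgeR called 2 of 55 lower with 4 pairs, and 0 histone genes lower with 11 libraries. The median change of the called-lower genes was -0.28 in the fit and -0.13 in pair 3, whereas for the called-higher genes it was 0.40 and 0.33. A fit on all 4 pairs over the listed genes called 230 of 6264 genes higher (3.67%) and 141 lower (2.25%). It called 342 of the 528 listed genes called with 3 pairs, including 40 of the 46 at 2-fold or more.

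**Figure D2:**
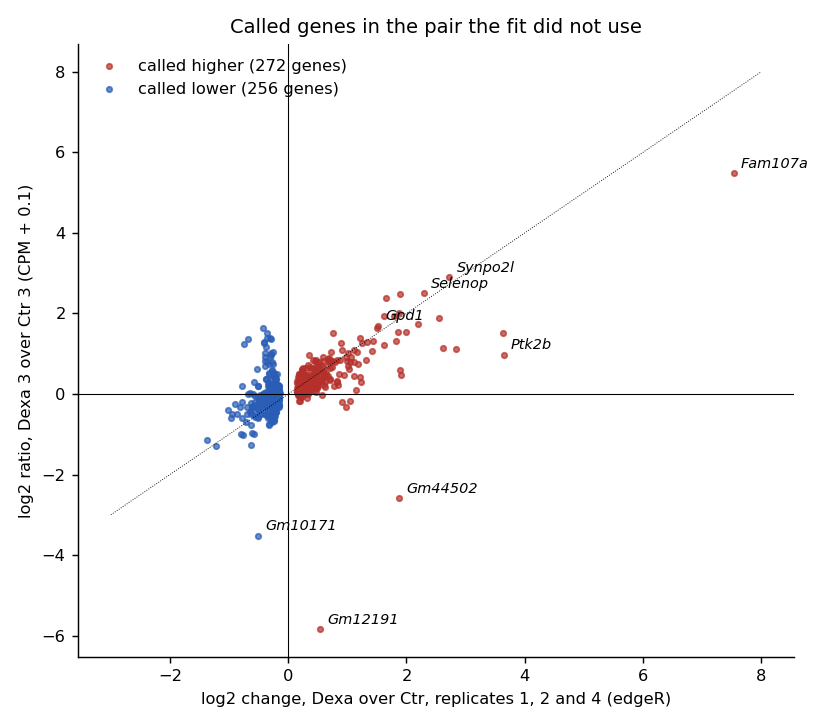
Log2 ratio of Dexa replicate 3 over Ctr replicate 3 (y axis, CPM + 0.1) against the change fitted on replicates 1, 2 and 4 (x axis) for the 528 called genes that the incomplete table lists whole. Of the red points (called higher) 251 of 272 lie above 0, and of the blue points (called lower) 165 of 256 lie below 0; the dotted line marks equal values.

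Fam107a, which encodes a stress-induced actin-bundling protein, showed the largest rise. It measured 0.216, 0.226, 0.166 and 0.131 CPM in Ctr replicates 1 to 4 and 42.7, 39.6, 11.8 and 26.6 CPM in Dexa replicates 1 to 4. Every Dexa library stood far above every Ctr library, with the lowest Dexa value in replicate 3. The change was 7.53 ± 0.12 (adjusted p = 4.36e-10). As single ratios with 0.1 CPM added, pairs 1, 2 and 4 gave 7.08, 6.93 and 6.85, and pair 3 gave 5.48. The gene (chr14:8296274-8318023, minus strand, GRCm38) has several annotated starts, and the reads were assigned to transcripts that begin at an internal one. The transcript Fam107a-201, which starts at base 8309779, rose from 0.131 to 0.216 CPM in Ctr to 10.4 to 37.7 CPM in Dexa (7.55 ± 0.14, adjusted p = 0.0163 over 50494 transcripts). Fam107a-203, which starts 2 bases away, was assigned 0 reads in all 4 Ctr libraries and 4.83, 5.59, 1.39 and 3.25 CPM in Dexa replicates 1 to 4. Against a floor of 3 reads over the Ctr group, that is at least 194.3-fold higher in the 3 full pairs. Fam107a-203 was not called among transcripts in edgeR (adjusted p = 0.354). Reads are split between these neighbouring transcripts by estimate, with an error that is not given, so the ratio is not a secure bound.

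Sequence upstream of 3 starts is shown, chosen after the search because these windows hold a match. The windows are the 250 bases before a RefSeq start (GRCm38.p6, read in the direction of the gene), and were searched on both strands for the full palindromic glucocorticoid response element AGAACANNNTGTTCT, for its central part ACANNNTGT, which lies within it, and for the E-box CACGTG that the clock factors bind. Capitals mark every match. Over all 32851 promoter windows of 250 bases before to 50 after a start, 0.00913% held the full element (3 windows), 6.85% the central part and 7.15% the E-box.
Fam107a-201 (chr14:8309780-8310029, minus strand): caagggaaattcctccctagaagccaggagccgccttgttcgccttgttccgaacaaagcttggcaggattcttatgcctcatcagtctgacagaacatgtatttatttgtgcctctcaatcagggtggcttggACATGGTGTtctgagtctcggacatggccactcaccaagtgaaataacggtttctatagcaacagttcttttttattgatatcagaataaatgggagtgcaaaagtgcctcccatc
Sgk1-202 (chr10:21993640-21993889, plus strand): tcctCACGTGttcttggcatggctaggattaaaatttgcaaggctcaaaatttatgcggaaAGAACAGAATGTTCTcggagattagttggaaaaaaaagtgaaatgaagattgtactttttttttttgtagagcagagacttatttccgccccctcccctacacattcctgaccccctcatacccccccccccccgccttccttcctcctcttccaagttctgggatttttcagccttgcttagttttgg
Per1-201 (chr11:69098699-69098948, plus strand): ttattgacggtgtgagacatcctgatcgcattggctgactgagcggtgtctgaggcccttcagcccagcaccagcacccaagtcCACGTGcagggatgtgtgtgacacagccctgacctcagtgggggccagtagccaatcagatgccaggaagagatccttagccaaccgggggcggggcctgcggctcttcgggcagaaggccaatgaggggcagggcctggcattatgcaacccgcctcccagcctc
The Fam107a window held the central part once, beginning at base -116 from the start. The Sgk1 window held the full element at -189 and an E-box at -246, and the Per1 window held an E-box at -166. Windows with a match that are not shown were Fkbp5-201, with an E-box at -169, and a second Fam107a window. The latter belongs to a neighbouring RefSeq start and held the same central part, at -118. Of 13 windows read for genes described here, 8 held none of these letters: Sgk1-201, Sgk1-204, Per1-204, Klf9-201, Hif3a-202, Tsc22d3-202, Selenop-201 and Tnc-204. A match is a description of the letters, and none of these windows was tested for binding here.

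Sgk1 encodes a kinase that regulates ion channels and transporters. Its level was 24.8, 57.2, 95.8 and 109.2 CPM in Ctr replicates 1 to 4, and 34.5, 86.2, 126.6 and 167.9 CPM in Dexa. The groups overlapped, since Ctr litters spanned a wider range than any pair did, but Dexa was higher in each of the 4 pairs (0.58 ± 0.04, adjusted p = 4.17e-05, and 0.40 in pair 3). With 11 libraries the adjusted p was 0.0986. The transcript that begins right after the printed window, Sgk1-202, was a minor one, at 1.05 to 4.62 CPM in Ctr and 1.02 to 4.88 CPM in Dexa. The most abundant form was Sgk1-201, whose start lies at 21994666 and which went from 12.3, 25.8, 43.4 and 61.1 CPM to 17.9, 44.5, 66.7 and 104.3 CPM. Its change was 0.69 ± 0.08, with an adjusted p of 0.297 among transcripts in edgeR, so it was not called. Sgk1-204, which starts far upstream at 21882184, measured 10.2, 24.5, 37.5 and 30.7 CPM in Ctr and 13.6, 31.2, 42.6 and 41.9 CPM in Dexa (0.39 ± 0.06, edgeR adjusted p = 0.403).

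Transcript-level tests called 4 transcripts in edgeR, all higher (0.00792% of those tested): Fam107a-201, Selenop-203, Fkbp5-201 and Hif3a-202. DESeq2 with the same block called 1548, and 3737 had an unadjusted p under 0.05 in edgeR, so the count differed strongly between tools. On simulated transcript counts most DESeq2 calls were false and edgeR also exceeded its threshold, so transcripts are described by their levels and no DESeq2 p is given for them. Tsc22d3, which encodes the glucocorticoid-induced leucine zipper, had transcripts with different values, none of which was called. Tsc22d3-201 measured 5.1, 4.03 and 3.31 CPM in Ctr replicates 1, 2 and 4 and 22.2, 9.87 and 4.67 CPM in Dexa (1.31 ± 0.34, edgeR adjusted p = 0.555). Tsc22d3-202, the more abundant form in Ctr, measured 14, 13.5 and 13 CPM and then 20.1, 13.9 and 15.1 CPM (0.25 ± 0.12, edgeR adjusted p = 0.739). The difference between both transcripts was not tested.

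Of a list of 35 genes widely known to be raised by glucocorticoids, 33 were tested, 20 were called higher and 0 lower. The list was chosen with earlier results of these data known and holds some of the largest rises, Fam107a, Hif3a and Sult1a1 among them. Its counts therefore describe the list and are not a test. The median change was 0.58, against 0.00 over all genes tested, where 4.65% were called higher. The count was 20 in DESeq2 and 14 with 11 libraries, and all 8 of the called members that Dexa replicate 3 lists were higher in pair 3 too. The 13 members not called ranged from Irs2 at -0.21 ± 0.06 to Map3k6 at 0.65 ± 0.36. They included Dusp1, a MAP kinase phosphatase, at 0.03 ± 0.11, Ddit4, an mTOR inhibitor, at 0.01 ± 0.09 and Pdk4, a brake on pyruvate oxidation, at 0.05 ± 0.32. Angptl4 and Lcn2 did not pass the count filter. Lcn2, which encodes the iron-carrier lipocalin 2, had 3 reads over Ctr replicates 1, 2 and 4, and 35, 137 and 5 reads in Dexa replicates 1, 2 and 4, a ratio of 79.3 with a 95% counting interval of 26.7 to 388.0.

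Hif3a encodes a hypoxia-inducible factor subunit that can restrain the other subunits. Its level was 0.459, 0.188, 0 and 0.0982 CPM in Ctr replicates 1 to 4 and 27.2, 15.2 and 15.5 CPM in Dexa replicates 1, 2 and 4, with no overlap (6.25 ± 0.17, adjusted p = 3.6e-08). Sult1a1, a phenol sulfotransferase, went from 0.351, 0.32, 0.332 and 0.0982 CPM to 7.12, 4.17 and 1.99 CPM (4.04 ± 0.23, adjusted p = 6.9e-06). Both were near the lower end of detection in Ctr, and their Dexa values differed among litters.

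Per1 and Gpd1 responded evenly across litters. Per1, a repressor in the circadian clock, measured 11.6, 11.2, 8.91 and 11.1 CPM in Ctr and 36.2, 34.1, 34.4 and 33.6 CPM in Dexa replicates 1 to 4. All 4 Dexa values lay within a narrow range far above Ctr (1.62 ± 0.06, adjusted p = 3e-07). Gpd1, the cytosolic glycerol-3-phosphate dehydrogenase, measured 31.2, 31.8, 28.6 and 26.2 CPM in Ctr and 82.6, 89.9, 92.6 and 82.5 CPM in Dexa (1.52 ± 0.05, adjusted p = 3e-07). These 2 and Fam107a were the genes called without the replicate block.

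Fkbp5, a co-chaperone that lowers the receptor's affinity for its ligand, measured 52.1, 46.3, 37.2 and 37.7 CPM in Ctr and 136.9, 120.4 and 101.5 CPM in Dexa replicates 1, 2 and 4 (1.41 ± 0.04, adjusted p = 3.78e-08). Among transcription factor genes on the list, Klf9, Zbtb16, Cebpd, Bcl6 and Klf15 were called higher, while Cebpb (0.23 ± 0.39) and Nfil3 (0.16 ± 0.09) were not called. Klf9 went from 27.3, 19.6, 12.7 and 18.6 CPM to 70.6, 49.8 and 40.7 CPM (1.30 ± 0.06), and Zbtb16, which encodes PLZF, from 7.91, 7.32, 9.18 and 9.23 CPM to 20.7, 18.8 and 24.6 CPM (1.39 ± 0.07). Neither overlapped between the groups. Cebpd changed by 1.21 ± 0.14, Bcl6, a repressor, by 0.67 ± 0.06 and Klf15 by 0.63 ± 0.08, with adjusted p-values of 0.000669, 0.00018 and 0.00164. The rest of the called members were Mertk, a receptor for engulfing dying cells and debris (1.36 ± 0.09), Tsc22d3 (0.79 ± 0.12), Arrdc2, an arrestin-domain gene (0.56 ± 0.12), Glul, glutamine synthetase (0.52 ± 0.06), Nfkbia, the inhibitor of NF-κB (0.39 ± 0.08), Errfi1, a brake on the EGF receptor (0.36 ± 0.07), and the metallothioneins Mt1 and Mt2. Errfi1 was no longer called without replicate 2 (adjusted p = 0.0905).

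**Figure D3:**
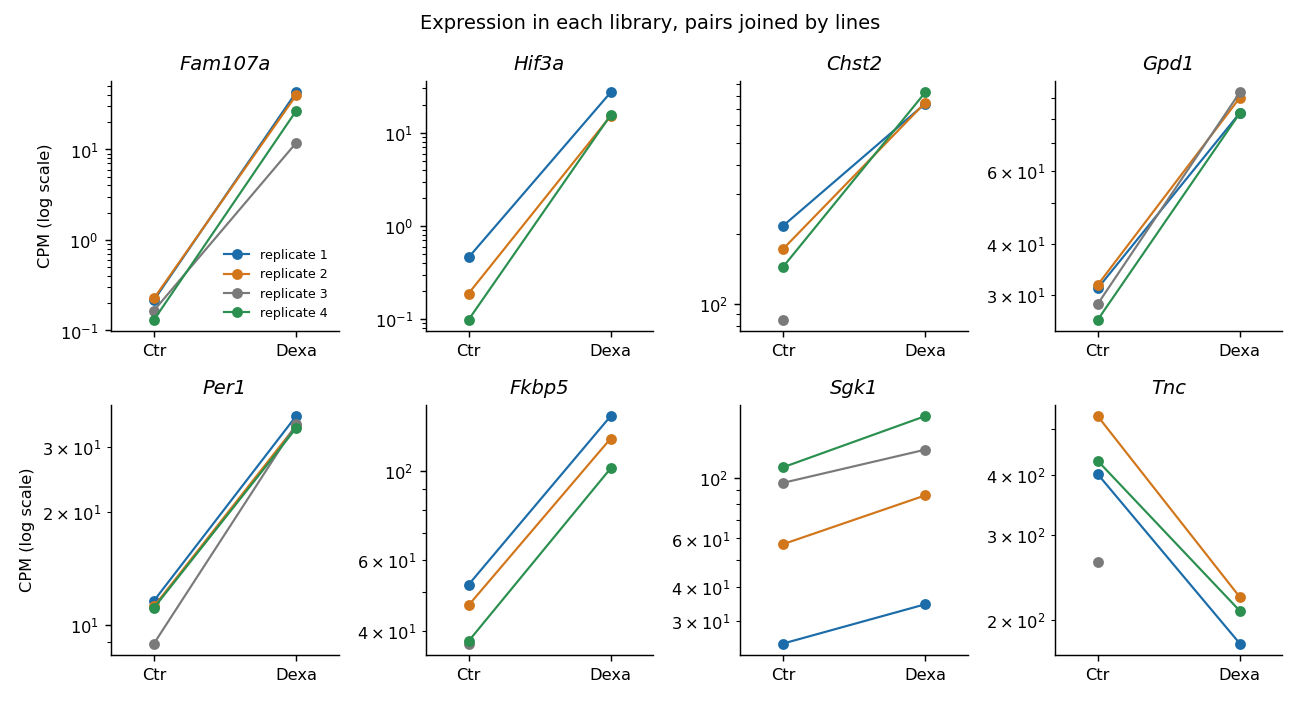
CPM (log axis) of 8 genes in each Ctr and Dexa library, with the libraries of one replicate number joined by a line and coloured alike; replicate 3 has no Dexa point for genes outside its incomplete table, and the Ctr replicate 3 value of Hif3a, which is 0, is not drawn. Per1 and Gpd1 start and end at nearly the same level in every litter, Sgk1 rises in parallel from litter levels that differ widely, and Tnc falls in each full pair.

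The receptor and its machinery gave a share of calls near that of all genes. Of 25 listed genes for receptors, chaperones, co-regulators and ligand-converting enzymes, 23 were tested and 1 was called, Fkbp5 (4.35%, against 8.47% of all genes tested). In edgeR 7 of them had an unadjusted p under 0.05, against 3966 of all 17400 genes tested. With 11 libraries, 2004 of 18386 genes did. Nr3c1, the glucocorticoid receptor gene, measured 90.4, 92.2, 95.9 and 98.8 CPM in Ctr and 79.5, 83.1 and 91.7 CPM in Dexa replicates 1, 2 and 4. It was lower in each full pair but not called (-0.14 ± 0.04, adjusted p = 0.0516). The median change of the list was -0.08, with 17 of 23 genes below 0. Length-corrected, Nr3c1 lay between 10.2 and 12.6 TPM in Ctr and its relative Nr3c2, the mineralocorticoid receptor gene, between 0.181 and 0.372 TPM. Hsd11b1 and Hsd11b2, which activate and inactivate natural glucocorticoids, did not pass the filter.

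The circadian clock genes moved in both directions. The clock is a loop in which CLOCK (or NPAS2) with ARNTL drives the Per, Cry, Nr1d, Dbp, Tef and Ciart genes through E-boxes, and their products feed back on it. Of 20 genes tested, 4 were called higher and 4 lower (against 4.65% and 3.82% of all genes), with a median of 0.00. All 5 called members listed in Dexa replicate 3 kept their side in pair 3. With 11 libraries 5 were called.
On the higher side stood Per1, described above, Per2 (0.51 ± 0.10, adjusted p = 0.0138), Arntl (0.40 ± 0.06, adjusted p = 0.0032) and Npas2 (1.15 ± 0.30, adjusted p = 0.0408). Per2 measured 16.4, 17.6, 14.6 and 13.9 CPM in Ctr and 29.7, 21.3, 22.6 and 18 CPM in Dexa, without overlap. Npas2 was near the lower end of detection, with 0.332 to 0.452 CPM in Ctr, changed by 0.10 in pair 3, and was not called when any 1 of the pairs was left out (adjusted p up to 0.13).
On the lower side stood Per3, Nr1d2, Ciart and Tef. Per3 measured 15.6, 18.2, 16.2 and 13.7 CPM in Ctr and 6.83, 8.82 and 9.29 CPM in Dexa replicates 1, 2 and 4, again without overlap (-0.94 ± 0.11, adjusted p = 0.000718). Nr1d2, a nuclear receptor that represses Arntl, measured 28, 33.3, 30.1 and 30 CPM in Ctr and 13.5, 18.7, 14.9 and 23 CPM in Dexa replicates 1 to 4. All Dexa values were below all Ctr values (-0.76 ± 0.10, adjusted p = 0.0016, and -1.01 in pair 3). Tef and Ciart changed by -0.28 ± 0.05 and -0.84 ± 0.19 (adjusted p = 0.00507 and 0.0228), and Ciart lost its call without replicate 2 (adjusted p = 0.118). The paralogous Per genes thus went different ways, with Per1 and Per2 higher and Per3 lower. Uncalled members included Nr1d1 (-0.30 ± 0.14), Dbp (-0.53 ± 0.15), Clock (0.12 ± 0.04) and Cry1 (0.00 ± 0.07).

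**Figure D4:**
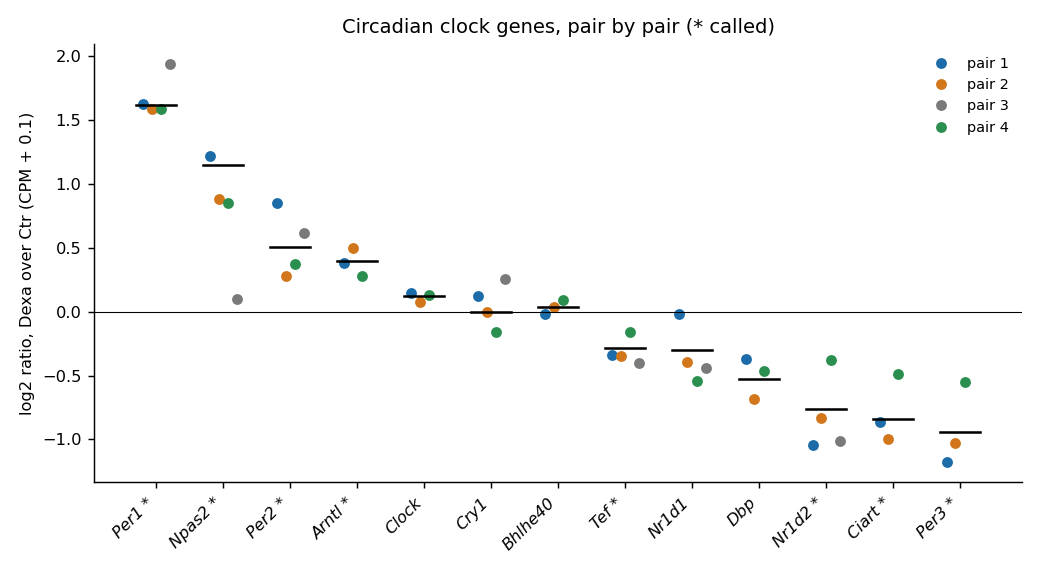
Log2 ratio of Dexa over Ctr (y axis, CPM + 0.1) in each pair for 13 of the 20 clock genes, with the fitted change of the 3 full pairs as a black bar; an asterisk marks the 8 called genes. Per1 lies above 1.5 in all 4 pairs, and Per3, Nr1d2 and Ciart lie below 0 in every pair that has a value.

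Metallothioneins bind zinc and copper. Of 8 metallothionein and metal transport genes tested, 3 were called higher (against 4.65% of all genes tested) and 0 lower. Mt2 went from 11, 11.3, 3.38 and 7.99 CPM to 36.2, 31.6 and 20.7 CPM (1.55 ± 0.08). Mt1 changed by 0.94 ± 0.08 and Mt3 by 0.70 ± 0.05, and both overlapped between groups. Adjusted p-values of the 3 ran from 2.6e-06 to 0.000112. With 11 libraries edgeR called 2, and Mt3 was not called (adjusted p = 0.0636). The 5 other listed genes, for zinc and manganese transporters and the metal-sensing factor Mtf1, were not called and lay between -0.31 and 0.16.

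Of 15 tested ion and water transport genes, listed as regulated by corticosteroids, 7 were called higher (against 4.65% of all genes tested) and 0 lower, with a median of 0.19. This list too was chosen with earlier results of these data known, and it holds Kcnt1 and Cftr, which are among the largest rises. All 4 of the called members listed in Dexa replicate 3 were higher in pair 3. With 11 libraries 4 were called. The sodium-activated potassium channel gene Kcnt1 measured 1.59, 1.24, 1.43 and 1.05 CPM in Ctr and 32.1, 8.62 and 9.5 CPM in Dexa replicates 1, 2 and 4 (3.53 ± 0.24, adjusted p = 1.88e-05). Its Dexa level in replicate 1 was far above the others. Cftr, a chloride channel gene, measured 0.351, 0.226, 0.353 and 0.164 CPM and then 4.13, 2.29 and 2.57 CPM (3.55 ± 0.24, adjusted p = 2.01e-05). The epithelial sodium channel subunits Scnn1a, Scnn1b and Scnn1g did not pass the filter.

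The other large rises concerned genes of varied function. Ptk2b, a calcium-sensitive kinase of the focal adhesion family, went from 0.027, 0.339, 0.228 and 0.164 CPM to 3.91, 2.47, 0.545 and 0.892 CPM (3.64 ± 0.50, adjusted p = 0.00181). As single ratios with 0.1 CPM added, pairs 1, 2 and 4 gave 4.98, 2.55 and 1.91, and pair 3 gave 0.97. Synpo2l, which encodes an actin-binding protein, went from 2.62, 1.88, 3.43 and 1.87 CPM to 7.56, 17.2, 26.3 and 19.4 CPM (2.72 ± 0.27, adjusted p = 0.000281). Its Dexa level was lowest in replicate 1. Selenop, which encodes a secreted selenium carrier, went from 79, 26.4, 9.28 and 22.8 CPM to 384.0, 138.0, 53.1 and 101.5 CPM. Its litters spanned a wide range in both groups while the ratio stayed even (2.29 ± 0.05, adjusted p = 5.92e-09, and 2.50 in pair 3).
Receptor genes for transmitters were among them: Adra1a, the α1A adrenoceptor, went from 1.19, 1.05, 0.602 and 0.524 CPM to 8.39, 5.06, 2.48 and 3.1 CPM (2.54 ± 0.17), and Gabrb1, a GABA-A receptor subunit, from 1.03, 1.47, 1.58 and 2.06 CPM to 5.56, 8.7 and 7.82 CPM (2.32 ± 0.16), both with an adjusted p of 2.01e-05. Frmpd4, a postsynaptic scaffold gene, changed by 2.61 ± 0.20. Tekt4, a gene of cilia, changed by 3.04 ± 0.34, Clca3a1, named for calcium-activated chloride channels, by 2.69 ± 0.48 and Arhgef37, of the guanine nucleotide exchange factor family, by 2.36 ± 0.33, and all 3 stayed below 0.6 CPM in Ctr. Cd101, an immunoglobulin-family gene, had 3 reads over Ctr replicates 1, 2 and 4 and 129 in the matching Dexa libraries, a ratio of 57.8 (95% counting interval 19.3 to 283.8).

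Among abundant genes the larger changes were also mostly upward. Of the protein-coding genes called, 34 reached 100 CPM in the higher group and changed by at least 1.5-fold, 31 higher and 3 lower, a cut chosen after the values were seen. Called genes with smaller changes are outside this count and included many abundant genes that fell. The share over all abundant genes tested was not counted. Chst2, a sulfotransferase of glycan chains, measured 217.8, 172.8, 85 and 144.5 CPM in Ctr and 739.7, 747.2 and 827.7 CPM in Dexa replicates 1, 2 and 4. The Dexa values were close together although the litters had differed in Ctr (2.14 ± 0.11, adjusted p = 3.98e-06). Galnt16, which starts O-linked glycans, went from 88.2, 86.8, 127.2 and 98.6 CPM to 165.7, 184.2, 258.5 and 197.3 CPM (1.01 ± 0.04, adjusted p = 1.41e-06, and 1.02 in pair 3). Pik3r1, a regulatory subunit of PI3 kinase, went from 473.8, 502.1, 679.5 and 619.1 CPM to 759.5, 801.0, 978.9 and 901.6 CPM (0.64 ± 0.05, adjusted p = 3.87e-05). Neither overlapped between groups. Smox, which oxidises spermine, changed by 1.25 ± 0.10, Fry, a cytoskeletal gene, by 1.10 ± 0.07, Ndrg2 by 0.98 ± 0.07, Bcat1, a branched-chain amino acid transaminase, by 0.92 ± 0.07, and Adora1, the adenosine A1 receptor, by 0.74 ± 0.04.

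The falls were led by Tnc among abundant genes. Tnc (chr4:63959785-64047015, minus strand) encodes the matrix protein tenascin C. Its level was 402.4, 531.7, 263.6 and 429.0 CPM in Ctr replicates 1 to 4 and 178.3, 222.9 and 208.6 CPM in Dexa replicates 1, 2 and 4. Every Dexa value lay below every Ctr value (-1.15 ± 0.05, adjusted p = 1.74e-06). Both main transcripts went down, Tnc-203 by -1.28 ± 0.05 and Tnc-204 by -1.03 ± 0.08, though neither was called among transcripts in edgeR (adjusted p = 0.0832 and 0.195). Gap43, a growth cone gene, measured 213.7, 187.7, 137.4 and 160.0 CPM and then 130.6, 113.4 and 88.4 CPM (-0.75 ± 0.04, adjusted p = 8.39e-06), and Car8 changed by -0.59 ± 0.08.
The other large falls were in genes of low or moderate level that differed strongly among litters. St6gal2, a sialyltransferase, went from 21.3, 26.3, 36.6 and 50.1 CPM to 9.63, 12.2 and 29.8 CPM (-0.98 ± 0.08). Pkhd1l1, a fibrocystin-like gene, went from 0.864, 2.47, 4.28 and 4.88 CPM to 0.349, 0.915, 1.88 and 1.89 CPM (-1.37 ± 0.19), and was lower in all 4 pairs. Slc5a7, the choline transporter of cholinergic neurons, changed by -1.24 ± 0.26, Mc5r, a melanocortin receptor, by -1.06 ± 0.12 and Adora2b, an adenosine receptor, by -1.01 ± 0.20. Adora2b lost its call without replicate 2 (adjusted p = 0.0639). Epb41l4a changed by -0.99 ± 0.14, Rassf3 by -0.96 ± 0.12 and the NMDA receptor subunit Grin2c by -0.96 ± 0.19.

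Of 18 cell cycle genes tested, 9 were called lower (against 3.82% of all genes) and 0 higher, with a median of -0.20. All 5 called members listed in Dexa replicate 3 were lower there as well. The changes were small: Cdk1, the mitotic kinase, measured 175.1, 133.0, 72.6 and 65.4 CPM in Ctr and 147.3, 106.2, 52.2 and 46.7 CPM in Dexa (-0.33 ± 0.05, adjusted p = 0.00261). Litters overlapped widely and each pair fell. Ccnb1, cyclin B1, changed by -0.26 ± 0.04, and the replication licensing genes Mcm7 and Mcm5 by -0.22 ± 0.04 and -0.26 ± 0.05. Mki67 was not called (-0.13 ± 0.06). The count was 3 without replicate 4, when Ccnb1 and Mcm5 lost their calls (adjusted p up to 0.082), and 0 with 11 libraries, where 0 had an unadjusted p under 0.05. None of 7 genes for cyclin-dependent kinase inhibitors was called by edgeR (by DESeq2 also 0), though 4 had an unadjusted p under 0.05, with Cdkn1a at 0.17 ± 0.07, Cdkn1b at 0.01 ± 0.04 and Cdkn1c at -0.15 ± 0.14.

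Of 18 genes of OPC identity 7 were called, 5 higher and 2 lower (against 4.65% and 3.82% of all genes tested), with a median of 0.06. Cspg4 measured 486.9, 856.1, 985.9 and 781.8 CPM in Ctr and 738.6, 1292 and 1231 CPM in Dexa replicates 1, 2 and 4 (0.62 ± 0.04, adjusted p = 2.01e-05). Pdgfra measured 1285, 2818, 3392 and 2558 CPM and then 1480, 3463 and 3260 CPM (0.29 ± 0.04, adjusted p = 0.00228). Both overlapped between groups and rose in each full pair. The matrix genes Tnr and Vcan changed by 0.50 ± 0.07 and 0.41 ± 0.05. The called falls were the transcription factor gene Nkx2-2 (-0.32 ± 0.06) and C1ql1, a complement-related secreted protein gene (-0.32 ± 0.07), and C1ql1 stood at 0.19 in pair 3. The lineage factors Olig1, Olig2 and Sox10 were not called, at 0.10 ± 0.05, -0.01 ± 0.05 and 0.09 ± 0.05. The count was 4 without replicate 2 and 2 with 11 libraries, and 2 of the 3 called members listed in Dexa replicate 3 kept their side there.

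Of 18 genes of differentiating and myelinating oligodendrocytes, 4 were called higher and 1 lower (against 4.65% and 3.82% of all genes tested), with a median of 0.08. With 11 libraries edgeR called 0 of them, and 4 had an unadjusted p under 0.05. Enpp6, a marker of newly forming oligodendrocytes, went from 0.837, 5.83, 23.9 and 64.7 CPM in Ctr replicates 1 to 4 to 0.667, 3.43 and 40.1 CPM in Dexa replicates 1, 2 and 4 (-0.69 ± 0.08, adjusted p = 0.000884). Its level differed widely among litters and was lower in Dexa in each full pair. Mag changed by 0.74 ± 0.12. Mobp changed by 1.67 ± 0.34 but was near the lower end of detection and overlapped between groups. It measured 0.324, 0.376, 0.0623 and 0.0327 CPM in Ctr replicates 1 to 4 and 1.11, 1.2 and 0.0525 CPM in Dexa replicates 1, 2 and 4. Enpp6 lost its call without replicate 4 and Mag without replicate 2 (adjusted p = 0.0726 and 0.0575). Myrf, Bcas1 and Cnp were not called, at 0.08 ± 0.06, 0.03 ± 0.05 and 0.08 ± 0.06.

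Of 10 astrocyte genes 6 were called higher (against 4.65% of all genes tested) and 0 lower, with a median of 0.17. The summed level of the list was 1702, 1380 and 975.6 CPM in Ctr replicates 1, 2 and 4 and 2136, 1816 and 1263 CPM in the matching Dexa libraries, with 641.5 CPM in Ctr replicate 3. S100b and Sox9 stood at -0.18 ± 0.06 and -0.19 ± 0.05 and were not called. Aldoc, an aldolase of brain glia, measured 413.2, 315.4, 156.9 and 230.1 CPM in Ctr and 681.9, 630.1, 375.1 and 438.9 CPM in Dexa (0.89 ± 0.06, adjusted p = 1.44e-05, and 1.26 in pair 3). The glutamate transporter gene Slc1a2 changed by 0.43 ± 0.05. Gfap, the defining astrocyte filament gene, was low in both groups, at 0.594, 1.22, 0.125 and 0.491 CPM in Ctr and 1.02, 4.35, 0.605 and 1.47 CPM in Dexa (1.50 ± 0.25, adjusted p = 0.00503, 0.108 without replicate 2). Aqp4, another defining gene, changed by 0.03 ± 0.06 and Aldh1l1 by 0.06 ± 0.05. With 11 libraries 1 member was called. The number of cells of a type and the RNA per cell cannot be told apart in bulk cultures, and the part of a small astrocyte share in the rises of Mt3, Selenop or Glul was not tested.
Markers of microglia and of vascular cells were sparse, whereas the neuronal list was not. The microglial list summed to 9.56 to 14 CPM in Ctr and 11.3 to 13.7 CPM in Dexa, only 3 of its 15 genes passed the filter and 0 were called by edgeR or DESeq2 or had an unadjusted p under 0.05. The neuronal list summed to 912.9 to 1555 CPM in Ctr and 926.6 to 1405 CPM in Dexa. Its largest part was Map2, with a mean of 1136 CPM in Ctr and 1091 CPM in Dexa. Of 10 neuronal genes, 8 were tested and Snap25 (0.64 ± 0.10) and Tubb3 (0.26 ± 0.05) were called higher, against 4.65% of all genes tested. The vascular list summed to 5.29 to 20.3 CPM in Ctr and 6.83 to 21.2 CPM in Dexa, and of 8 tested genes Flt1, a VEGF receptor, was called (0.96 ± 0.15).

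Genes that glucocorticoids are known to hold down in immune cells gave no called fall. Of 27 listed cytokine, NF-κB and AP-1 genes, 14 passed the filter. DESeq2 called 1 of these higher and 0 lower. By edgeR 2 were called higher and 0 lower (against 4.65% and 3.82% of all genes tested), and 2 had an unadjusted p under 0.05. Both called genes went against the direction the list is named for: Csf1, a growth factor for macrophages and microglia (0.35 ± 0.06), and the chemokine gene Ccl2 (1.05 ± 0.24). Ccl2 was below 2.5 CPM in every library, and both lost their call without replicate 2 (adjusted p = 0.0583 and 0.13). Fos and Jun lay at 0.18 ± 0.13 and 0.04 ± 0.06. Of 18 tested interferon and antigen presentation genes, 1 was called (5.56%, against 8.47% of all genes tested). It was the peptide transporter gene Tap1 (-0.38 ± 0.09, adjusted p = 0.0338), which lost its call when any 1 pair was left out. Irf1 and B2m were not called, at -0.07 ± 0.09 and -0.20 ± 0.06.

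The remaining lists changed in single members, and over all genes tested 4.65% were called higher and 3.82% lower. Among 14 hypoxia genes, Hif3a, Adm, Epas1 and Slc2a1 were called higher and Ldha, lactate dehydrogenase A, lower, with a median of 0.05. Adm, which encodes the vasodilator adrenomedullin, went from 3.7, 0.96, 0.851 and 0.36 CPM to 12.1, 3.1 and 1.31 CPM (1.73 ± 0.15), and Epas1, the HIF-2α gene, from 5.32, 5.95, 2.37 and 4.22 CPM to 8.93, 12.1 and 8.4 CPM (0.93 ± 0.10). Hif1a was not called (-0.14 ± 0.04). The glucose transporter gene Slc2a1 changed by 0.34 ± 0.06.
Sterol and fatty acid synthesis genes lay mostly just below 0, with 15 of 18 negative and a median of -0.13. Srebf1, the master factor of fatty acid synthesis, was called higher (0.42 ± 0.04) and 2 members lower, among them Cyp51, an enzyme of cholesterol synthesis (-0.19 ± 0.05). Cyp51 lost its call without replicate 2 or 4 (adjusted p up to 0.138), and edgeR with 11 libraries called 0 of the list, with 1 at an unadjusted p under 0.05.
Brakes on growth factor signalling gave 4 called higher and 1 lower of 14, with a median of 0.09, and with 11 libraries 0 higher and 1 lower, Fgfrl1. Dusp6, an ERK phosphatase, changed by 0.31 ± 0.05, Errfi1 by 0.36 ± 0.07, Spry4 by 0.16 ± 0.04 and Fgfrl1, a decoy FGF receptor, by -0.41 ± 0.06. The FoxO and mTOR list gave Pik3r1 and Klf15 higher and Ddit4l lower (-0.47 ± 0.08) of 17 tested, and the fuel list gave Gpd1 higher and Cpt1a, which brings fatty acids into mitochondria, lower (-0.26 ± 0.05) of 19. Cpt1a lost its call without replicate 2 (adjusted p = 0.0537), and Spry4 without replicate 2 or 4 (adjusted p up to 0.111).

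**Figure D5:**
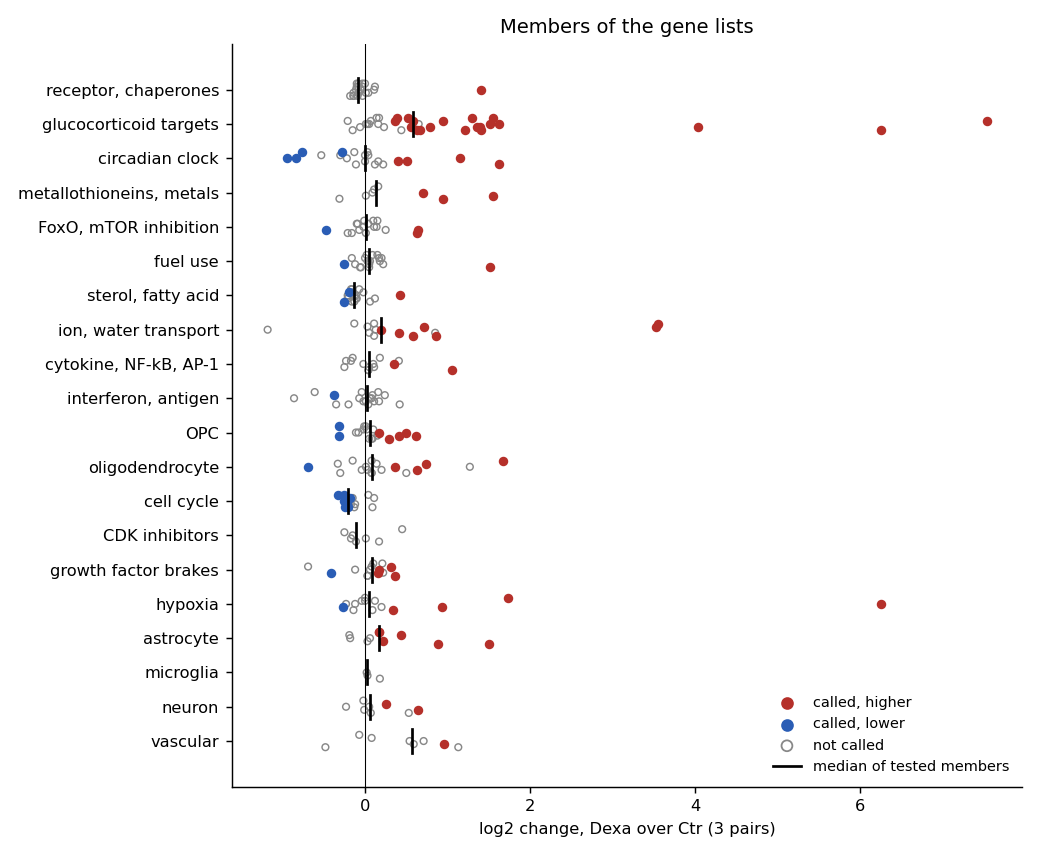
Change in Dexa over Ctr (log2, x axis) of every tested member of the 20 gene lists, one list per line, filled red where called higher, filled blue where called lower and open where not called, with the median of each list as a black bar. The list of glucocorticoid targets, chosen with earlier results of these data known, holds 20 red points and has a median of 0.58. The cell cycle list holds 9 blue points and no red one.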

How the data were processed

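Total RNA was converted to strand-specific, ribosome-depleted libraries and sequenced from both ends. The authors quantified each library with Salmon 0.8.2, and the deposited tables give an estimated count and a TPM value per transcript. The labels name the mouse build mm10, or GRCm38. The authors' 3 tables of their own comparisons (mean count, log2 fold change, SE, test statistic, p and adjusted p) were not used. Counts were summed per gene (Ensembl 96) and rounded. The fit kept genes reaching 10 counts in 3 or more of the 6 libraries and used edgeR 4.0.16 (TMM, replicate block, quasi-likelihood, R 4.3.3), while DESeq2 1.42.0 and limma 3.58.1 served as alternatives. Scripts were tested on simulated counts. On genes of 3 pairs, 0.0971 of the edgeR calls were false, above the threshold of 0.05, against 0.0326 of the DESeq2 calls. On transcripts the shares were 0.203 for edgeR and 0.573 for DESeq2. On the measured genes of 3 pairs edgeR called 1473 and DESeq2 1056. Deviations from group means correlated at 0.702 to 0.884 between libraries of the same number and at -0.787 to -0.151 between others, so the numbers were taken to pair the libraries. The replicates of a group came from different litters. With the replicate block, p-values measure how much the change within a pair varied among litters, not how much the litters differed in level. Dexa replicate 3 was scaled through the genes it lists. CPM are TMM-scaled, and ratios of single pairs add 0.1 CPM. Counting intervals cover counting error only, since PCR copies were not separated. Members and lists were chosen with earlier results of these data known. Named genes were the 15 largest rises and 10 largest falls among protein-coding genes with a regular symbol, called, of the same sign in 3 pairs and reaching 1 CPM in the higher group, every called member of the receptor, target, clock and cyclin-dependent kinase inhibitor lists, and up to 4 members of each other list, with uncalled members given as values. Promoter windows are from RefSeq (GRCm38.p6). Results for some genes are not reported here.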

Additional observations from a re-analysis of the deposited data

Results flagged for a closer look

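In 198 groups of 4 libraries, 7 single libraries lay further from the rest of their group than a gap test for 4 values allows, and chance gives about 1 in 20 groups. Sult1a1 was at 0.0982 CPM in Ctr replicate 4, below the other Ctr libraries, and Sparcl1 at 258.0 CPM in Ctr replicate 2, above them. Ndrg2 was at 191.2 CPM in Dexa replicate 1, the lowest of its group. Cry1 was at 18 CPM in Ctr replicate 3. In Dexa replicate 1, Grin2c at 7.94 CPM and Rassf3 at 41.9 CPM lay above the other Dexa libraries, as they did in Ctr replicate 1. AY036118, a sequence annotated as a long noncoding RNA, was at 1899 CPM in Ctr replicate 1 and at 36.2 CPM or less in the other libraries, and its change of -4.68 ± 2.13 was not called.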

How the results depend on the processing

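Without the replicate block, calls fell from 1473 to 3 with 3 pairs (from 137 to 3 at 2-fold or more), from 371 to 4 with 4 pairs (from 40 to 4 at 2-fold or more) and from 4 to 1 for transcripts. The spread between litters then enters the error, and the square root of the common dispersion was 0.278 against 0.057 in pairs. The list counts without the block were 3 for glucocorticoid targets, 1 for clock genes, 0 for cell cycle and 0 for OPC genes. With no filter on low counts, 2709 genes (222 at 2-fold or more) were called with 3 pairs and 689 (62) with 4. With 11 libraries there were 275 calls, 5 for clock, 0 for cell cycle and 2 for OPC genes. DESeq2 called 1548 transcripts. Leaving out 1 replicate gave 965 to 1570 genes with 3 pairs and 118 to 177 at 2-fold or more, 118 to 507 genes with 4 pairs and 22 to 46 at 2-fold or more, 0 transcripts each time (2443 to 2877 with an unadjusted p under 0.05), and 19 to 21 targets, 6 to 8 clock, 3 to 11 cell cycle and 4 to 8 OPC genes. The cause of these shifts was not tested apart from the block. No named gene changed sign under the alternatives run. Of 112 named genes called, 109 lost their call without the block, 40 with 11 libraries and 14 without replicate 2, 5 with DESeq2, which gave no adjusted p for 5 others, while 0 did with other size factors or limma-voom. Depth limits genes under about 1 CPM.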

Other observations

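Beyond the genes named by the rule, the next rises in rank, read after their values were seen, included several genes of signalling and the extracellular space. Rcan2, a regulator of calcineurin, measured 5.13, 3.65, 3.45 and 3.67 CPM in Ctr replicates 1 to 4 and 22, 19.5 and 15.3 CPM in Dexa replicates 1, 2 and 4 (2.21 ± 0.10, adjusted p = 1.41e-06). Mical2, an enzyme that oxidises actin, went from 8.69, 3.37, 3.28 and 2.52 CPM to 36.9, 13.6 and 10.9 CPM (2.07 ± 0.08, adjusted p = 7.01e-07). Jade2 went from 5.81, 4.35, 2.93 and 3.05 CPM to 21.8, 17.1, 8.65 and 13 CPM (1.99 ± 0.09, adjusted p = 1.41e-06), and was higher in all 4 pairs. None of these 3 overlapped between groups. Ccn2, a matrix-associated growth regulator, changed by 2.19 ± 0.18, Sema3e, a guidance ligand, by 2.13 ± 0.23, Hapln1, a hyaluronan link protein gene, by 1.87 ± 0.30, and Agt, angiotensinogen, by 1.53 ± 0.12. Ptgfrn stood at 19.9 to 22 CPM in all 4 Ctr libraries but at 38.3, 83.7 and 122.2 CPM in Dexa replicates 1, 2 and 4 (1.85 ± 0.22), so that litters that agreed in Ctr differed in Dexa.

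Among the next falls, Bmp4, a ligand that promotes astrocyte fate in OPCs, went from 0.216, 2.86, 6.56 and 20.6 CPM in Ctr to 0.0318, 0.865, 5.51 and 14.7 CPM in Dexa replicates 1 to 4 (-0.91 ± 0.23, adjusted p = 0.0418). It was lower in each pair, but DESeq2 (adjusted p = 0.139), edgeR on 4 pairs (0.102) and edgeR with 11 libraries (0.645) did not call it. Angpt2, an angiopoietin gene, went from 3.56, 5.35, 4.46 and 3.31 CPM to 2.07, 2.7 and 1.94 CPM without overlap (-0.86 ± 0.14). The mitochondrial ribosomal RNA mt-Rnr2 was at 11850 to 24531 CPM in Ctr and 14462 to 27085 CPM in Dexa (0.20 ± 0.03, adjusted p = 0.00527).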
